A study of Mus musculus with 3 samples.

Results

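*Scgb1a1*-high mature club cells made up 216 of the 41033 barcodes kept from 3 single-cell RNA libraries of tdTomato-sorted mouse laryngeal cells. Club cells are non-ciliated secretory cells of the airway surface. They release secretoglobins, small proteins of which *Scgb1a1* is the classic marker, together with antimicrobial and mucosal proteins, and they carry cytochrome P450 enzymes that metabolise inhaled chemicals. In the airway they arise from basal cells, which express *Trp63* and *Krt5* and rest on the basement membrane, and Notch signalling is known to favour the secretory fate.

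A barcode was taken as a club cell when at least 50 of every 10,000 of its unique molecular identifiers (UMIs) were *Scgb1a1* and fewer than 30 were the gland genes *Dcpp1*, *Dcpp2*, *Dcpp3* and *Dmbt1* together. Before that, barcodes outside 500 to 8000 genes or 1000 to 40000 UMIs, or above 8% mitochondrial UMIs, were dropped, and those with UMIs of all of *Krt5*, *Ltf*, *Scgb3a1* and *Dcn*, were removed as mixed. The members were compared, library by library, with 1931 cells in which *Scgb3a2*, another secretoglobin, was at least 20 and *Scgb1a1* under 20 per 10,000, called *Scgb1a1*-low cells here. Both groups were thus chosen by measured values of *Scgb1a1*, *Scgb3a2*, *Krt5*, *Ltf*, *Scgb3a1*, *Dcn*, *Dcpp1*, *Dcpp2*, *Dcpp3* and *Dmbt1*, and these 10 genes are described and not tested.

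The larynges came from Lrig1CreERT2/+; ROSA LSL-tdTomato/+ mice. *Lrig1* is an inhibitor of ErbB receptors, and on tamoxifen a cell that transcribes it recombines the reporter and turns red. Cells were sorted for tdTomato 24 h after recombination. Each of the 3 libraries pooled 10 larynges of 5 male and 5 female mice, all carry the same alleles and treatment, and no control animals are among them, so n = 3 libraries throughout and no value belongs to 1 animal. The Cre is driven from *Lrig1*, and no feature for tdTomato or Cre stands among the 33696, which leaves the sort without a check in these counts. The paper used wild-type and ROSA LSL-tdTomato larynges as controls for the sort. By tissue staining, a protein measure, it reported that reporter-positive cells were not among the mature club cells marked by SCGB1A1. In its single-cell data of these sorted cells, the paper described *Scgb1a1* RNA in secretory clusters. Among cells without *Lrig1* RNA, a secretory cluster high in *Scgb1a1* was read there as more mature. How the members here relate to that staining or to those clusters was not tested.

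Of 60530 barcodes, 49393 passed the limits and 8360 of them were mixed (5.13 to 22.7% of the passing barcodes of a library). Club cells numbered 87, 44 and 85 in libraries 1, 2 and 3, or 0.694% (95% Wilson interval 0.563 to 0.855), 0.616% (0.459 to 0.826) and 0.398% (0.322 to 0.492) of the kept barcodes, with a mean of 0.569% ± 0.153 (SD, n = 3). The intervals cover counting error only. The summed club cells of a library held 605086 to 1044524 UMIs, and the *Scgb1a1*-low cells 4184722 to 17462284. The kept club cells were shallow: their median was 7514, 10310 and 5351 UMIs against 13752, 21899 and 14650 in the *Scgb1a1*-low cells, lower in 3 of 3 libraries (exact two-sided sign-flip permutation test p = 0.25, the smallest p that 3 pairs allow). With no upper limit on UMIs or genes the medians were 12047, 14910.5 and 5974 against 15222, 24125 and 14895.5. The libraries shared 46 to 165 cell barcodes between pairs. Simulated-doublet scoring marked 11 of the 216 club cells, which the rule leaves in.

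The markers of the label were checked by share and level. Every club cell had *Bpifa1* UMIs, 215 of 216 had *Cyp2f2* UMIs and 201 had *Scgb3a1* UMIs. In macrophage-gated barcodes of similar depth (median 4680 to 11284 UMIs), which should lack them, *Bpifa1* UMIs were found in 86.0 to 95.9%, *Cyp2f2* UMIs in 48.6 to 74.4% and *Scgb3a1* UMIs in 37.8 to 63.9% of barcodes, so the levels carry more than the shares: *Bpifa1* was at 1469.7 per 10,000 in club cells and 6.19 in macrophage-gated barcodes, and *Cyp2f2* at 81.0 and 7.19 (means of 3 libraries). *Scgb3a1* was at 378 and 3.93. Other secretory classes held these genes too: goblet-gated barcodes were at 260 for *Bpifa1*, 27.6 for *Cyp2f2* and 404 for *Scgb3a1*, and gland-gated barcodes at 625, 52.2 and 502. *Cyp2f2* was at 47.8 in basal-gated barcodes. *Scgb1a1* itself ranged from 50.9 to 3984 UMIs per 10,000 in a cell, with medians of 269, 489 and 280.04 in libraries 1, 2 and 3, and 34 of 216 cells were above 1000. The 216 cells held 142148 of the 165535 *Scgb1a1* UMIs of all kept barcodes, 79.8 to 90.1% of those in a library's kept barcodes, and 17.2, 51.3 and 45.4% of the *Scgb1a1* UMIs of all barcodes in libraries 1, 2 and 3. In kept barcodes of the basal, ciliated, macrophage and fibroblast classes *Scgb1a1* averaged 0.17 to 0.295 per 10,000, read here as background. In endothelial-gated barcodes it was at 0.479, 12.4 and 0.0964 in libraries 1, 2 and 3, with 1 of 682 barcodes at 50 or more, in library 2. The 19 members just inside the threshold, at 50 to 60 per 10,000, had median *Scgb1a1* of 53.2, 54.4 and 59.0 in the 3 libraries, and the 16 barcodes just outside, at 40 to 50, had 42.3, 47.4 and 44.9. Other markers showed no step of one sign there: *Bpifa1* was at 990, 1946 and 241 per 10,000 just inside and 642, 1992 and 1405 just outside, and *Scgb3a1* at 102, 333 and 26.3 against 157, 247 and 3.65, with 1 to 10 barcodes a library in each band.

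Most members were also rich in the other secretoglobins. *Scgb3a2* was at least 20 per 10,000 in 188 of 216 club cells, which the rule for club cells did not ask for, and *Ltf*, the iron-binding lactoferrin, was at least 50 in 127. *Ltf* averaged 128 per 10,000 in club cells, 239 in goblet-gated and 591 in gland-gated barcodes. *Scgb3a1* had a median per cell of 205, 463 and 72.9 per 10,000 in libraries 1, 2 and 3, lowest in library 3, and *Cyp2f2* one of 76.5, 51.9 and 85.8. Of genes that define other classes, 11 members had *Muc5b* at 20 or more per 10,000, 7 had *Krt5* at 10 or more, and 5 had ciliated genes at 5 or more. None of 216 had a UMI of the leukocyte gene *Ptprc*, which allows up to 1.39% of cells with a UMI and sets no limit on cells that express it. A further 38 barcodes that passed the *Scgb1a1* and gland limits had been removed as mixed, so the *Krt5* and *Dcn* levels of the members depend on the rule.

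**Figure D1:**
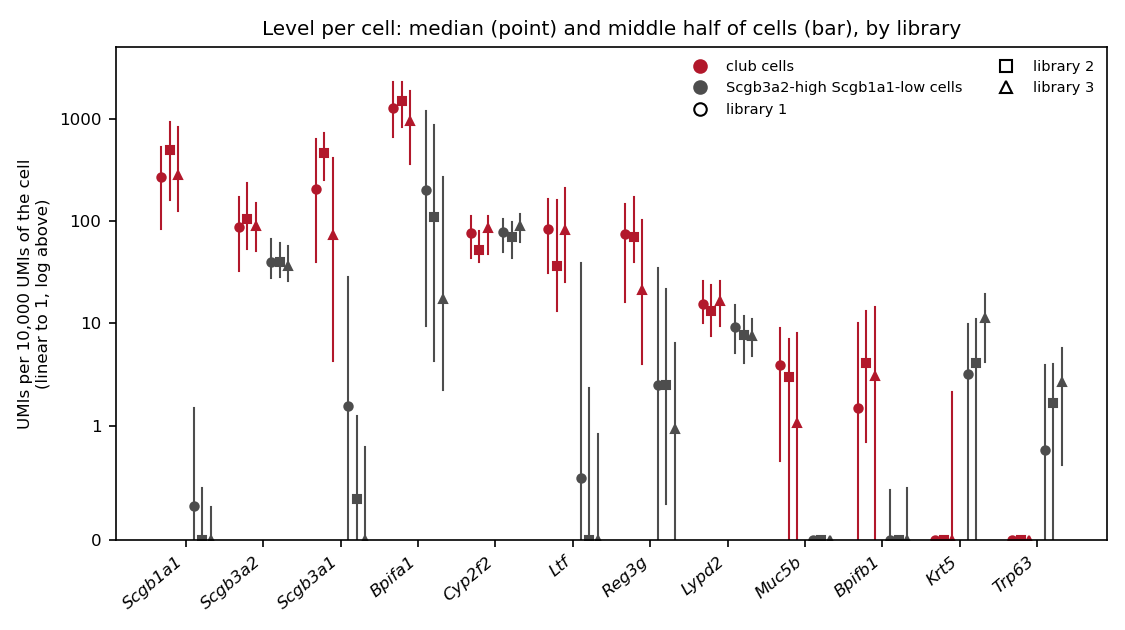
Level of 12 genes in single cells, in UMIs per 10,000 UMIs of the cell on an axis that is linear to 1 and logarithmic above. Points are medians and bars the middle range (lower to upper quartile) of the 216 club cells (red) and 1931 Scgb1a1-low cells (grey) of each library. The Scgb1a1 and Scgb3a2 differences are set by the choice of cells, Cyp2f2 lies at a like level in both groups, and Bpifa1, Reg3g and Lypd2 lie higher in the club cells of every library.

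Across the *Scgb1a1* range of the club cells, *Bpifb1* was highest in the highest class. It encodes a secreted protein of the same family as *Bpifa1*, an antimicrobial protein of airway fluid, and both genes lie on chromosome 2 of GRCm39 (*Bpifa1* at 153984800 to 153991139, *Bpifb1* at 154032738 to 154062289). In the 45 members at 50 to 100 *Scgb1a1* UMIs per 10,000, *Bpifb1* averaged 2.40 ± 1.2 (SD, n = 3 libraries) per 10,000 UMIs outside the 10 genes of the rule. The 39 members at 100 to 200 and the 40 members at 200 to 400 had 5.99 ± 3.99 and 4.37 ± 0.366, and the 92 members at 400 or more had 23.4 ± 4.77. The highest class held 19.7 to 28.8 in the 3 libraries and the lower classes at most 10.4, so they did not overlap. The share of all genes that separate likewise was not counted, so no weight is put on that separation. *Bpifa1* and *Cyp2f2* went little with *Scgb1a1*: *Bpifa1* was 1559 ± 469 in the lowest and 1881 ± 190 in the highest class, and *Cyp2f2* 84.2 ± 11.3 and 103 ± 32.8. *Scgb3a1* was 231 ± 144 in the lowest class and 629 ± 207 in the highest, and it too was highest in that class in every library. *Trp63* was at 0.524 ± 0.787 and 0.159 ± 0.0631, on 19 and 14 UMIs, too few to order. These values are a description, since *Scgb1a1* chose the classes.

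**Figure D2:**
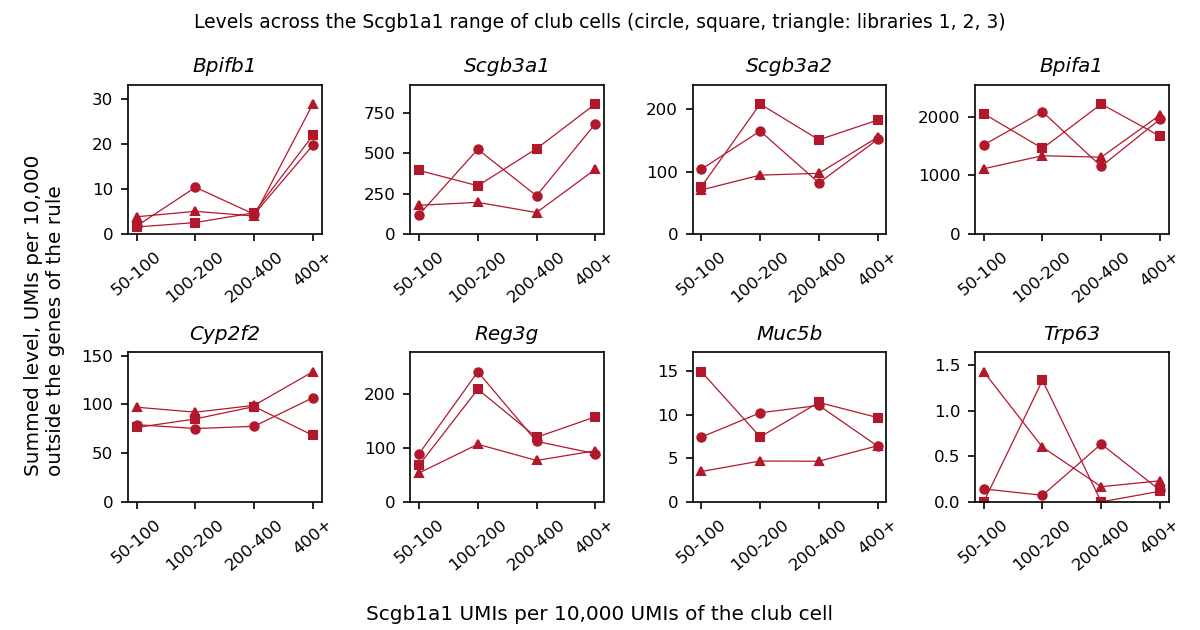
Summed level of 8 genes in club cells of 4 Scgb1a1 classes, in UMIs per 10,000 UMIs outside the genes of the rule, with 1 line per library. Bpifb1 is at 19.7 to 28.8 in the highest class and at most 10.4 in the others, while the libraries cross one another for Bpifa1, Muc5b and Trp63.

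Against the *Scgb1a1*-low cells, the question was which genes go with high *Scgb1a1* among cells of the same sort that hold secretoglobin RNA. The *Scgb1a1*-low cells are not a pure secretory class: *Krt5* was at least 10 per 10,000 in 839 of 1931 (24.8, 29.3 and 54.8% in libraries 1, 2 and 3), against 7 of 216 club cells. The comparison was therefore repeated, after the data were seen, with the 418, 145 and 529 *Scgb1a1*-low cells under that *Krt5* level. Without the 10 genes of the rule, counts were added up over the cells of each group in a library, and the sums went into a two-sided quasi-likelihood test in edgeR with the library as a block. Levels are given as CPM (counts scaled to a fixed total) after TMM scaling, for libraries 1, 2 and 3 in that order. They rest on counts of transcript 3' ends, so they compare groups for 1 gene and not 1 gene with another. Of 11434 genes tested, 1612 passed an adjusted p of 0.05, 14.1%, with 904 higher (7.91%) and 708 lower (6.19%) in club cells. Without TMM scaling the median log2 fold change of all genes moved from -0.01 to -0.33, and the calls became 508 higher and 2264 lower. With only *Krt5*-low comparison cells 981 genes passed, 534 higher and 447 lower, 960 of them among the 1612. *Bpifa1* alone held 13.96 to 15.2% of club cell UMIs and 2.70 to 7.77% of the others. Fold changes below are relative to the TMM centre and on the log2 scale, with ± giving the standard error.

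The secreted products stood higher as a list. The lists here and below were chosen with earlier results of these data known, so their counts are a description. Of 30 listed club secretory products, 4 are genes of the rule and 23 were tested: 21 rose, none fell, and the median log2 fold change was 2.24 against -0.01 for all genes (21 and 1.74 with *Krt5*-low comparison cells). *Bpifa1* was at 193976, 204009 and 171038 CPM in club cells and 74183, 51409.9 and 22998 in *Scgb1a1*-low cells (log2 fold change 2.09 ± 0.24, adjusted p = 0.000115). Every library's club cells were above all 3 sums of the other group. *Bpifb1* had the largest rise of all, from 56.8, 10.05 and 33.6 to 1259.6, 1436 and 1533 CPM (log2 fold change 5.54 ± 0.36, adjusted p = 4.93e-06, 6.15 without library 1). It is not highest in club cells: as a share of all UMIs it was at 9.87, 10.5 and 12.5 per 10,000 in club cells, 40.4, 72.4 and 392 in gland-gated barcodes, and 0.606, 0.0379 and 174.6 in goblet-gated barcodes of libraries 1, 2 and 3. *Reg3g*, a bactericidal lectin, stood at 13241, 16760.3 and 9570.4 against 3984, 2163 and 1430.3 CPM (log2 fold change 2.48 ± 0.21, adjusted p = 1.62e-05). *Reg3g* is not highest in club cells either: it was at 78.1 to 122.7 per 10,000 UMIs there and 190.6 to 393 in goblet-gated barcodes. *Lyz2*, a lysozyme, stood at 15804, 9756 and 9306 against 6897, 3297 and 1532 CPM (log2 fold change 1.78 ± 0.22, adjusted p = 0.000177; adjusted p = 0.0537 without the block). *Wfdc2*, a small secreted whey acidic protein, held nearly the same level in the 3 club sums, 9596, 9531 and 9612 CPM, against 4639, 3363 and 3231 (log2 fold change 1.37 ± 0.14, adjusted p = 5.81e-05). *Lcn2*, which binds bacterial siderophores, was at 148, 185 and 226 against 46.4, 15.8 and 4.06 CPM (log2 fold change 3.56 ± 0.56, adjusted p = 0.000985), with 4.75 without library 1 and 2.45 without library 3. For each of these 6 genes the sums of the groups did not overlap. The share of all tested genes that separate likewise was not counted, so no weight is put on such separation here or below. Haptoglobin, *Hp*, rose likewise (log2 fold change 3.69 ± 0.26, adjusted p = 6.92e-06).

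*Sftpb* and *Sftpa1* encode surfactant proteins: *Sftpb* was at 14.7, 13.5 and 38.2 against 0.814, 0.893 and 1.27 CPM (log2 fold change 4.44 ± 0.56, adjusted p = 0.000225) on 41 and 37 UMIs, and *Sftpa1* at 110.0, 119.7 and 153 against 16.9, 2.23 and 2.88 (log2 fold change 4.43 ± 0.48, adjusted p = 8.47e-05, 5.72 without library 1 and 3.69 without library 3). *Cd36*, a fatty acid receptor, stood at 745, 883 and 449 against 124, 42.4 and 15.1 CPM (log2 fold change 3.91 ± 0.34, adjusted p = 2.24e-05, 4.64 without library 1). *Cckar*, a cholecystokinin receptor, was at 53.8, 51.9 and 23.3 against 2.91, 2.01 and 0.831 CPM (log2 fold change 4.51 ± 0.40, adjusted p = 2.43e-05). In *Scgb1a1*-low cells *Sftpb* and *Cckar* lay below the filter on low counts, and *Sftpa1* lay below it in libraries 2 and 3. *Sftpb*, *Sftpa1* and *Cckar* were thus tested only through their level in club cells, which favours a rise, so their rises are read with that limit.

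Goblet cell genes moved the same way. Of 20 listed, 12 were tested and these 12 rose (median 2.18; *Muc5b*, *Tff2* and *Agr2* are in the secretory list too), 11 of them also without TMM scaling and 10 with the *Scgb1a1*-low cells matched to club cells on UMI count. With *Krt5*-low comparison cells 8 rose (median 1.55). The other 8 listed were too low to test. With no filter on low counts all 20 entered the test, 12 rose and 1 fell (median 1.84). *Muc5b*, a gel-forming mucin, was at 925, 1201 and 565 against 123, 33.7 and 29.7 CPM (log2 fold change 4.05 ± 0.32, adjusted p = 1.08e-05, 4.67 without library 1). As a share of all UMIs it averaged 6.88 per 10,000 in club cells and 16.8 in gland-gated barcodes. In goblet-gated barcodes, which *Muc5b* itself chose, it averaged 101. Of the 216 club cells 143 had a *Muc5b* UMI. *Tff2*, a trefoil peptide of mucus, stood at 551, 361 and 576 against 42.9, 48.9 and 60.5 CPM (log2 fold change 3.29 ± 0.16, adjusted p = 3.85e-07). Both genes were higher in each club sum than in any sum of the other cells. Of the mucus proteins, *Itln1* rose by 3.33 ± 0.30 and *Fcgbp* by 2.69 ± 0.19 on the log2 scale, and *Clca1* by 1.92 ± 0.20. The transcription factor genes of mucous and secretory differentiation were low in CPM: *Creb3l1* was at 106, 111 and 84.7 against 31.3, 13.8 and 10.7 (log2 fold change 2.51 ± 0.25, adjusted p = 4.66e-05), *Spdef* at 17.1, 31.6 and 16.6 against 8.49, 4.02 and 3.62 (log2 fold change 1.99 ± 0.46, adjusted p = 0.0114), and *Foxa3* at 8.55, 9.03 and 8.31 against 2.56, 1.56 and 0.977 on 16 and 49 UMIs (log2 fold change 2.37 ± 0.66, adjusted p = 0.031). *Spdef* did not pass without library 2 (adjusted p = 0.0861), with *Krt5*-low comparison cells (1.45, adjusted p = 0.0531) or with cells matched on UMI count (1.11, adjusted p = 0.099). *Foxa3* did not pass without library 1, 2 or 3 (log2 fold change 2.82, 2.33 and 2.03), nor with *Krt5*-low comparison cells (1.64, adjusted p = 0.0857). *Foxa3* too was tested only through its level in club cells.

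Machinery of the secretory pathway rose in part. In the list of 51 genes of protein secretion and the unfolded protein response, 50 were tested, 21 rose and none fell (median 0.42), but without TMM scaling 8 rose and 4 fell (median 0.10), and with *Krt5*-low comparison cells 10 rose and none fell. Without library 1, 2 or 3, 14, 12 and 10 rose and none fell. *Xbp1*, the transcription factor of the unfolded protein response, was at 204, 336 and 244 against 116, 110.1 and 89.4 CPM (log2 fold change 1.29 ± 0.16, adjusted p = 0.000184), and *Sec11c*, a signal peptidase subunit, at 169, 151 and 161 against 84.1, 63.4 and 59.03 (log2 fold change 1.23 ± 0.15, adjusted p = 0.000144). *Agr2*, a disulfide isomerase that helps mucins fold, rose by 1.46 ± 0.23. The abundant chaperones of the endoplasmic reticulum, *Hspa5* and *Pdia3*, did not pass (log2 fold change 0.17 ± 0.12 and 0.17 ± 0.13).

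**Figure D3:**
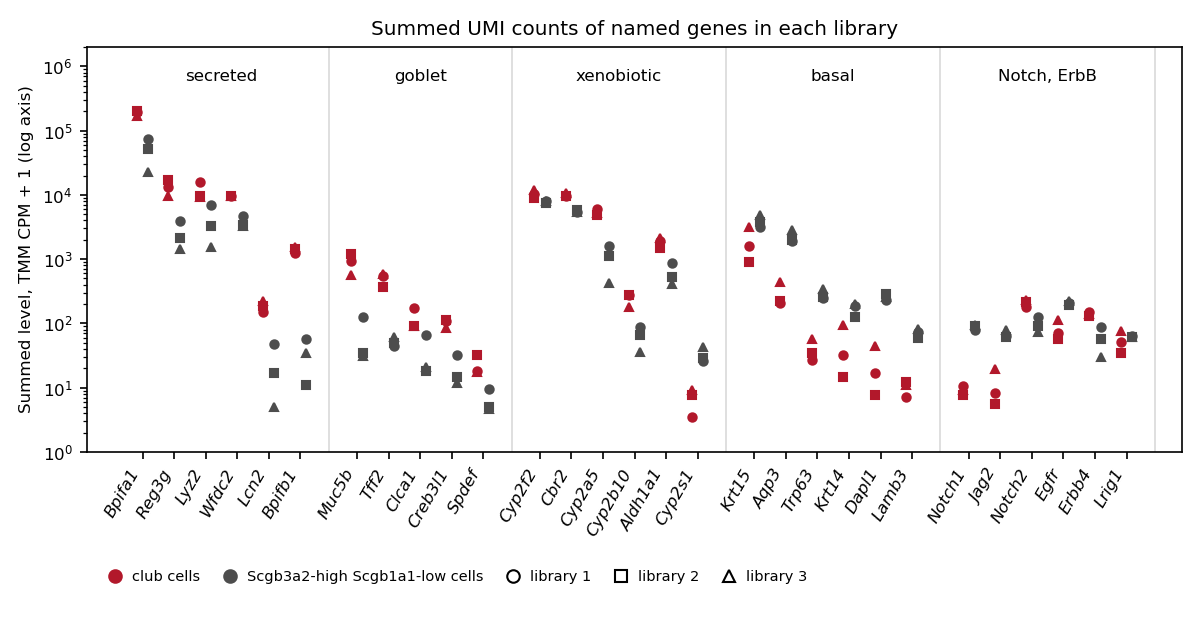
Summed level of 29 named genes in each library, as TMM-scaled CPM plus 1 on a log axis, for club cells (red) and Scgb1a1-low cells (grey). Red and grey points separate for the secreted, goblet and basal genes except Krt15, while they mix for Lrig1.

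Among enzymes that handle foreign chemicals, more rose than fell after TMM scaling. Of 38 listed phase I enzymes 31 were tested, 18 rose and 4 fell (median 0.72; 13 and 6 without TMM scaling, 15 and 2 without library 2). Of 40 phase II conjugating enzymes 33 were tested, 11 rose and 6 fell (median 0.37; 5 and 8 without TMM scaling). Without library 1, 2 or 3 it was 8 and 4, 5 and 3, and 7 and 3. *Cyp2f2*, the P450 that activates naphthalene and a marker of the label, was at 10189, 8831 and 12082 CPM in club cells and 8053, 7451 and 8025 in *Scgb1a1*-low cells. The sums did not overlap, yet the difference missed the threshold (log2 fold change 0.39 ± 0.13, adjusted p = 0.0636; 0.42 and 0.0246 without library 1), and it was 0.07 without TMM scaling. As a share of all UMIs, the rule's genes included, *Cyp2f2* was at 81.0 ± 17.0 per 10,000 in club cells and 86.0 ± 7.30 in *Scgb1a1*-low cells (SD, n = 3), a gap within the spread of libraries, and the median cell was at 70.9 and 83.9. No direction is read for *Cyp2f2*. Another P450 gene, *Cyp2a5*, was at 6100.1, 4841 and 5233 against 1574, 1127 and 420.1 CPM (log2 fold change 2.55 ± 0.27, adjusted p = 6.46e-05). *Cyp2b10* stood at 279.8, 280.0 and 178 against 87.3, 65.4 and 35.4 (log2 fold change 2.02 ± 0.15, adjusted p = 8.41e-06). *Cyp2s1* went the other way, 2.44, 6.77 and 8.31 against 24.7, 28.1 and 42.3 CPM (log2 fold change -2.53 ± 0.35, adjusted p = 0.000429), on 10 UMIs in club cells. The carbonyl reductase *Cbr2* rose by 0.85 ± 0.13 and the carboxylesterase *Ces1f* by 2.96 ± 0.56 (4.27 without library 1, 1.71 without library 3; no longer past the threshold at *Scgb1a1* of at least 100, 2.76, adjusted p = 0.0752). In phase II, the glutathione transferases *Mgst1* and *Gsto1* rose by 1.53 ± 0.15 and 1.05 ± 0.15, the sulfotransferase *Sult1d1* rose by 1.22 ± 0.12, and *Gstm1* had a log2 fold change of -0.62 ± 0.13 (adjusted p = 0.00831, and 0.0922 at a log2 fold change of -0.50 without library 2, 0.0505 without the block).

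Retinoid genes were split. Of 24 listed, 14 were tested, 4 rose and 4 fell (median -0.22; 4 and 2 without library 2, and a median of 0.028 without library 1 and -0.39 without library 3). *Aldh1a1*, which makes retinoic acid, was at 1912, 1513 and 2095 against 858, 518 and 408 CPM (log2 fold change 1.69 ± 0.19, adjusted p = 0.000106), and its relative *Aldh1a7* rose by 1.22 ± 0.19. *Rdh10*, which oxidises retinol, and *Rbp4*, its carrier, rose by 1.91 ± 0.20 and 3.10 ± 0.42. *Dhrs3*, which reduces retinaldehyde back to retinol, was at 175, 192 and 161 against 303, 341 and 279.5 CPM (log2 fold change -0.80 ± 0.12, adjusted p = 0.000856).

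Basal cell genes were lower in club cells, against comparison cells of which many held *Krt5*. Of 22 listed, *Krt5* is a gene of the rule and 20 were tested: 19 fell, none rose, and the median log2 fold change was -1.78; 17 fell with the *Scgb1a1*-low cells matched on UMI count and 17 with mixed barcodes kept. With *Krt5*-low comparison cells 15 fell and the median was -1.18. *Trp63*, the transcription factor that defines basal cells, was at 25.7, 33.9 and 56.5 CPM in club cells and 246, 257 and 339.5 in *Scgb1a1*-low cells (log2 fold change -2.90 ± 0.17, adjusted p = 2.42e-06). Club cells with a *Trp63* UMI were 36 of 216, 16.7%, against 1404 of 1931, 72.7%. With each cell thinned to 5000 UMIs (86 club cells and 318 *Scgb1a1*-low cells left out as shallower), the shares were 9.10% ± 3.97 and 58.1% ± 9.94 (SD, n = 3), lower in club cells in 3 of 3 libraries (exact two-sided sign-flip permutation test p = 0.25). Macrophage-gated barcodes had *Trp63* UMIs in 8.11 to 30.2%, a range that holds the 13.6 to 18.4% of club cells in the 3 libraries. Whether the *Trp63* UMIs of club cells are background or expression was not tested. *Aqp3*, a water and glycerol channel, had the smallest unadjusted p of all genes, 208, 226 and 432 against 1938, 1975 and 2859.8 CPM (log2 fold change -3.02 ± 0.14, adjusted p = 3.85e-07). The basal keratins followed: *Krt14* was at 31.8, 13.5 and 93.03 against 185, 125 and 199.7 CPM (log2 fold change -1.97 ± 0.27, adjusted p = 0.00045, -2.74 without library 3), *Krt17* fell to 31.8, 22.6 and 94.7 from 341, 324 and 436 (log2 fold change -2.96 ± 0.24, adjusted p = 1.17e-05, -3.58 without library 3), and *Krt15* stood at 1579.7, 905 and 3208 against 3184, 3724 and 4924, where library 3's club cells overlapped library 1's other cells (log2 fold change -1.21 ± 0.21, adjusted p = 0.00226; adjusted p = 0.108 without the block). Against *Krt5*-low comparison cells the *Krt14* call was lost (-0.077, adjusted p = 0.94). The *Krt17* fall was smaller there (-1.28, adjusted p = 0.0206). Library 3 had the highest basal keratin level among the club sums for each of the 3. *Lamb3*, a laminin chain of the basement membrane anchor, and *Dapl1* had log2 fold changes of -3.02 ± 0.27 and -3.49 ± 0.30 (-4.32 without library 3).

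Squamous genes were lower or did not pass: of 21 listed, 14 were tested, 6 fell and none rose (median -0.91; 9 fell without TMM scaling and 3 with *Krt5*-low comparison cells). Without library 1, 4 fell (median -0.64), without library 2, 9 of 16 (median -1.45), and without library 3, 8. *Krt4* was at 119, 81.3 and 131 against 257, 268 and 223 CPM (log2 fold change -1.16 ± 0.17, adjusted p = 0.000602; -0.53, adjusted p = 0.0595 with *Krt5*-low comparison cells) and the protease *Tmprss11a* at 15.9, 13.5 and 24.9 against 58.5, 70.5 and 71.7 (log2 fold change -1.86 ± 0.23, adjusted p = 0.000186). *Krt13* and *Krt6a* hung on library 2. *Krt13* was at 24.4, 282 and 36.5 CPM in club cells and 156, 187 and 132 in the others (log2 fold change -0.98 ± 0.43, adjusted p = 0.163), and *Krt6a* at 7.33, 145 and 13.3 and 48.6, 37.3 and 41.2 (log2 fold change -0.17 ± 0.60, adjusted p = 0.903). Without library 2 both were called lower, at -2.29 and -2.20, and with *Krt5*-low comparison cells both changed sign without passing (0.74, adjusted p = 0.427, and 1.49, adjusted p = 0.124). *Lgals7* did not pass (log2 fold change 0.25 ± 0.43, adjusted p = 0.776).

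**Figure D4:**
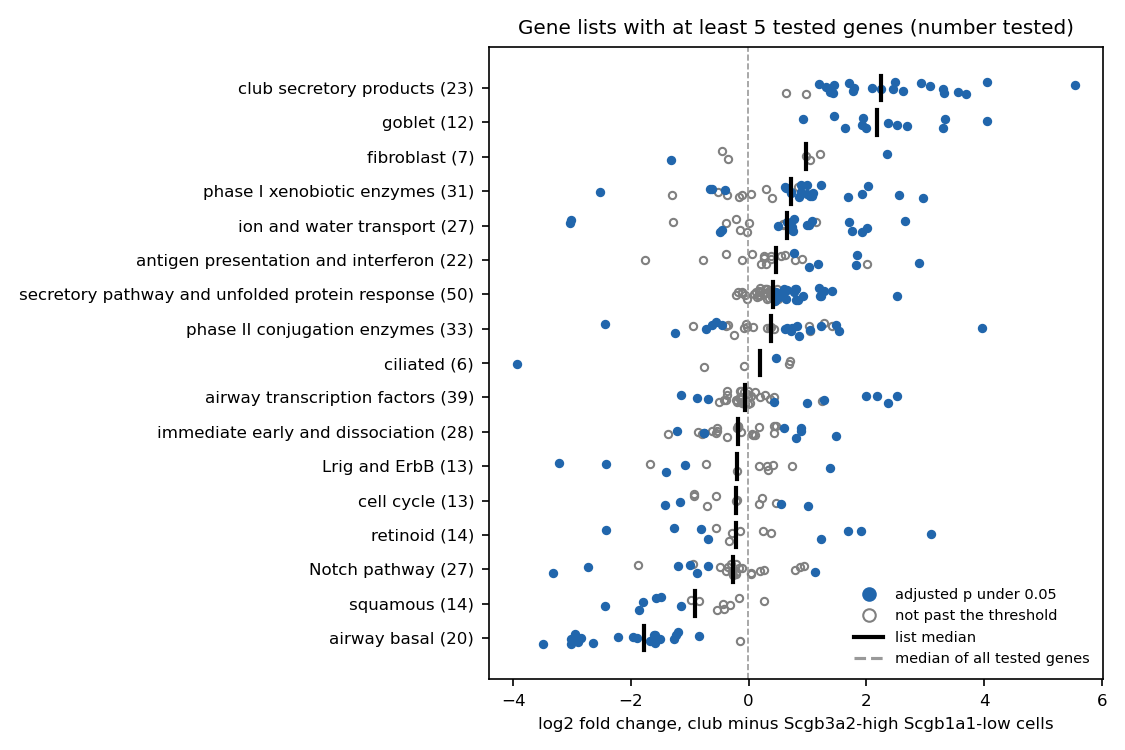
Log2 fold change of club cells over Scgb1a1-low cells for each tested gene of the lists with at least 5 tested genes; filled points passed an adjusted p of 0.05, black bars are list medians and the dashed line is the median of all 11434 genes. Club secretory and goblet genes lie to the right (medians 2.24 and 2.18) and airway basal genes to the left (-1.78). The lists were chosen with earlier results of these data known.

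In the Notch pathway, 27 of 36 listed genes were tested, 6 fell and 1 rose (median -0.27; 11 fell and 1 rose without TMM scaling). The receptor *Notch1* was at 9.77, 6.77 and 8.31 CPM in club cells and 76.6, 88.8 and 94.6 in *Scgb1a1*-low cells (log2 fold change -3.32 ± 0.25, adjusted p = 8.80e-06), on 16 and 2993 UMIs. *Notch2* moved the other way, 176, 212 and 228 against 124, 89.97 and 72.8 CPM (log2 fold change 1.12 ± 0.19, adjusted p = 0.00166). No club sum overlapped a sum of the other cells for either receptor. The ligand genes *Jag2* and *Jag1* were at 7.33, 4.52 and 18.3 against 62.5, 59.4 and 78.9 CPM (log2 fold change -2.73 ± 0.28, adjusted p = 6.53e-05) and 21.99, 18.1 and 41.5 against 58.2, 57.4 and 70.5 (log2 fold change -1.20 ± 0.22, adjusted p = 0.00321). The coactivator gene *Maml2* had a log2 fold change of -0.70 ± 0.12 (adjusted p = 0.00198), and the target gene *Hes1* did not pass (-0.21 ± 0.13, adjusted p = 0.354; -0.53 and 0.00974 without TMM scaling).

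Among 19 listed Lrig and ErbB genes, 13 were tested, 4 fell and 1 rose (median -0.21). *Egfr*, the receptor that *Lrig1* restrains, was at 70.9, 56.4 and 111 against 207, 194 and 221 CPM (log2 fold change -1.40 ± 0.17, adjusted p = 0.000147), and its relative *Erbb4* at 149, 131 and 139.5 against 88.4, 56.7 and 29.02 (log2 fold change 1.39 ± 0.24, adjusted p = 0.00186). The neuregulin ligand genes *Nrg2* and *Nrg1* had log2 fold changes of -3.22 ± 0.35 and -2.43 ± 0.30 (*Nrg1* -1.35, adjusted p = 0.0514 with *Krt5*-low comparison cells). *Lrig1* itself was at 50.1, 33.9 and 74.8 CPM in club cells and 62.7, 61.2 and 60.1 in *Scgb1a1*-low cells, with overlapping sums and no call (log2 fold change -0.21 ± 0.21, adjusted p = 0.607; -0.53 without TMM scaling).

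Of the other lists, ion and water transport had 27 of 38 genes tested, 13 higher and 4 lower (median 0.65; 7 and 4 with *Krt5*-low comparison cells). *Atp1b1*, a sodium pump subunit, rose by 0.76 ± 0.12, the chloride channel regulator *Clca2* had a log2 fold change of -3.03 ± 0.36, and *Aqp5* did not pass (-0.15 ± 0.15). *Scnn1a*, a subunit of the epithelial sodium channel, was at 151, 259.7 and 123 against 121, 126 and 81.8 CPM (log2 fold change 0.65 ± 0.15, adjusted p = 0.0135; adjusted p = 0.15 at 0.43 without library 2, 0.126 without the block, 0.125 without TMM scaling, 0.0727 at no more than 5% mitochondrial UMIs and 0.0781 with *Krt5*-low comparison cells). Antigen presentation and interferon genes had 22 of 30 tested, 6 higher and none lower (median 0.46). Without library 1 it was 9 and 1 (median 0.65), without library 2 it was 3 and none (median 0.19), and without library 3 it was 6 and 1. *B2m* and *H2-K1* of class I antigen presentation rose by 1.03 ± 0.12 and 0.76 ± 0.13, and of the interferon genes *Isg15* rose by 1.82 ± 0.21, while *Ifit3* was at 9.77, 92.6 and 4.98 CPM in club cells, high in library 2 alone (2.89 ± 0.66; 1.63, adjusted p = 0.289, without library 2, and 3.64 without library 3). Airway transcription factors had 39 of 40 tested, 7 higher and 3 lower (median -0.07; 6 higher and 14 lower without TMM scaling, 3 and none with *Krt5*-low comparison cells, 4 and 1 without library 2, 6 and 2 without library 1). Neither *Nkx2-1*, the lung and airway factor (89.2, 92.6 and 103 against 99.2, 102 and 129 CPM, log2 fold change -0.21 ± 0.14, adjusted p = 0.409), nor *Klf5* (0.01 ± 0.12) passed. Cell cycle genes had 13 of 35 tested, 2 higher and 2 lower (none higher and 4 lower without TMM scaling, 1 and 1 without library 1 or 3, 1 and 5 of 23 tested without library 2, and 2 and 5 of 35 with no filter on low counts). The cyclin gene *Ccnd2* had a log2 fold change of -1.17 ± 0.23 (-0.81, adjusted p = 0.0683 with *Krt5*-low comparison cells) and *Ccnd3* one of 0.54 ± 0.15. *Ccnd3* did not pass without library 2 (0.32, adjusted p = 0.268), nor without the block (adjusted p = 0.127), with DESeq2 (0.0711), without TMM scaling (0.282) or with *Krt5*-low comparison cells (0.191). A UMI of the proliferation genes *Mki67* or *Top2a* was found in 2.30, 2.27 and 2.35% of club cells and 2.52, 2.93 and 7.78% of *Scgb1a1*-low cells in libraries 1, 2 and 3. Those shares were not brought to equal depth, and no difference is read from them.

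Genes of the response to cell dissociation had 28 of 32 tested, 5 higher and 3 lower (2 and 13 without TMM scaling). Without library 1, 2 or 3 it was 3 and 3, 3 and 2, and 3 and 4, and with no filter on low counts 4 and 9. *Jund* and *Nfkbia* rose by 0.60 ± 0.12 and 0.89 ± 0.15 (*Jund* 0.28, adjusted p = 0.124 without TMM scaling, *Nfkbia* 0.51, adjusted p = 0.159 with cells matched on UMI count). *Jun* and *Hspb1* had log2 fold changes of -1.21 ± 0.32 and -0.76 ± 0.17 (*Hspb1* -0.50, adjusted p = 0.0594, without library 2, and -0.60, adjusted p = 0.0752 at *Scgb1a1* of at least 100; *Jun* -0.33, adjusted p = 0.259 with no upper limit on UMIs or genes). Markers of other cell types were sparse: 2 of 17 gland acinar genes were tested and *Tfcp2l1* rose (0.99 ± 0.23). It did not pass without library 3 (0.77, adjusted p = 0.0969), without the block (adjusted p = 0.0555), matched on UMI count (0.051) or with *Krt5*-low comparison cells (0.1). Of the ciliated list, 6 of 20 ciliated genes were tested with 1 higher and 1 lower, and the defining gene *Foxj1* was at 2.44, 18.1 and 3.32 CPM. Of 20 neuroendocrine and tuft genes only *Dclk1* was tested, and it rose (2.22 ± 0.51; 1.96 and 1.90, past the threshold in neither, without library 1 or 3). Immune, muscle satellite, and endothelial and pericyte lists had 1 of 21, 1 of 14 and 2 of 18 tested and no call. Calls appeared in some alternatives, all of them higher: the endothelial and pericyte list had 2 without library 1 or at no more than 5% mitochondrial UMIs, 1 without TMM scaling, with doublet-like barcodes removed or with comparison cells at *Scgb1a1* under 5, and 4 with no filter on low counts, and the immune list had 1 without library 3 or with no filter. Their summed levels in club cells were 0.106 to 0.471, 0.0981 to 0.711 and 0.689 to 15.9 per 10,000 UMIs outside the rule's genes, against at most 0.118, 0.247 and 1.34 in the other cells. The upper end of the last is library 3, where *Acta2* of contractile cells was at 766 CPM, against 8.55 and 0 in libraries 1 and 2. *Acta2* did not pass (3.95 ± 1.39), was called higher without library 1 (6.85) and stood at -1.52 without library 3. Fibroblast genes had 7 of 18 tested, 1 higher and 1 lower (median 0.97). Without library 1 it was 1 and 3 (median -1.81), and without library 3 it was 4 and 1 (median 1.20). *Vim*, at 75.7, 6.77 and 139.5 CPM in club cells, was called higher (2.35 ± 0.49, 1.20 without library 3), and *Gsn* was called lower (-1.32 ± 0.26). *Vim* did not pass with DESeq2 (1.78, adjusted p = 0.388), among club cells with *Scgb3a2* (0.99, adjusted p = 0.107) or with no upper limit on UMIs or genes (2.09, adjusted p = 0.0621). The part of these other cells in the results was not tested.

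The genes with the largest falls were lowly expressed. *Sntg1*, *Sema6d* and *Frmpd1* had no UMI in any club sum, against means of 19.9, 11.6 and 10.5 CPM in *Scgb1a1*-low cells, so they were at least 12.4-fold, 7.17-fold and 6.51-fold lower, taking 3 counts over the 3 club sums as the limit. *Kcnh1*, a potassium channel gene, had 1 UMI in club cells and 1271 in the others, and *Gria4*, a glutamate receptor subunit gene, 3 and 896. All of these genes were tested only through their level in *Scgb1a1*-low cells, which favours a fall. Genes called lower spanned more of the genome (median 58.0 kb) than those called higher (27.4 kb) or all genes tested (28.0 kb).

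Within the club cells, the 188 with *Scgb3a2* at 20 or more per 10,000 (73, 38 and 77 in libraries 1, 2 and 3) were set against the 28 below it (14, 6 and 8). Those with *Scgb3a2* had the lower median depth in 3 of 3 libraries, 7514, 9485 and 5351 against 7662, 13866 and 6859 UMIs. They also differed in *Scgb1a1*, with medians of 311, 548 and 299 per 10,000 with *Scgb3a2* and 128, 107 and 127 without, and the part of either difference in the results below was not tested. Of 4819 genes tested, 18 passed (0.374%), 15 higher (0.311%) and 3 lower (0.0623%) with *Scgb3a2*. Without TMM scaling the median of all genes moved from -0.01 to -0.22, and 9 were higher and 10 lower. Of the 15 higher genes, 6 were in the club secretory list. *Bpifb1* was at 1475, 1712 and 1802 CPM with *Scgb3a2* and 494, 242 and 286 without (log2 fold change 2.28 ± 0.30, adjusted p = 0.000257). *Reg3g* stood at 15555, 19872 and 10988 against 4973, 3468 and 3558 (log2 fold change 1.92 ± 0.26, adjusted p = 0.000257), and *Agr2* at 390.3, 295 and 517 against 95.9, 16.1 and 81.8 (log2 fold change 2.54 ± 0.38, adjusted p = 0.00106). *Pon1*, a secreted lactonase, was at 335, 403 and 344 against 103, 96.8 and 27.3 (log2 fold change 2.20 ± 0.37, adjusted p = 0.00601). For these 4 genes the sums did not overlap and the call held without any 1 library. *Bpifa1* (1.20 ± 0.26), *Clca1* (2.33 ± 0.49), *Pglyrp1*, which binds peptidoglycan (1.55 ± 0.28), *Gsto1* (1.19 ± 0.25) and *Krt15* (1.71 ± 0.32) also passed. *Krt15* was at 2.34 without library 1. *Krt15*, *Bpifa1* and *Gsto1* were lost without library 2 (log2 fold change 1.30, 1.46 and 1.29) or 3 (1.67, 1.02 and 0.98), *Pglyrp1* without library 2 (1.22), and *Clca1* without library 1 or 3 (1.85 and 2.50). *Mgp*, a matrix protein gene, rose by 3.09 ± 0.58 with 336 of its 343 UMIs in the *Scgb3a2* group, 464 CPM in library 1 and 8.27 in library 2 (3.67 without library 3; no value without library 1, where its counts fell under the filter; 1.61 with doublet-like barcodes removed, where it did not pass). *Map1b* (-2.73 ± 0.55) and *Junos* (-2.45 ± 0.54), which lies antisense to *Jun*, were lower, on 19 and 22 UMIs in the larger group, and neither passed without library 2 or 3 (*Map1b* -2.54 and -2.23, *Junos* -1.89 and -2.56; *Map1b* -3.39 without library 1). *Map1b* and *Junos* lay below the filter on low counts in cells with *Scgb3a2*, and *Clca1* in cells without it. Each was thus tested only through the group where it is high, which favours the direction called. Without *Scgb3a2*, *Agr2* in library 2 and *Pon1* in library 3 lay below the filter too. The lists gave 6 of 20 tested club secretory genes and 2 of 7 tested goblet genes higher, with medians of 0.64 and 1.37 against -0.01 for all genes. No tested gene of the phase I, Notch, transcription factor, secretory pathway or ErbB lists passed. The count hung on the fit: without the block only *Bpifb1*, *Reg3g*, *Agr2* and *Pon1* passed, with DESeq2 7 genes passed, and none with at most 5% mitochondrial UMIs, where 176 had an unadjusted p under 0.05.

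A *Lrig1* UMI was found in 25 of 87, 10 of 44 and 22 of 85 club cells, 28.7% (95% Wilson interval 20.3 to 39.0), 22.7% (12.8 to 37.0) and 25.9% (17.8 to 36.1), against 45.5%, 55.6% and 53.2% of *Scgb1a1*-low cells. The share was lower in club cells in 3 of 3 libraries (mean difference -25.6 ± 8.18 percentage points, SD, n = 3; exact two-sided sign-flip permutation test p = 0.25, the smallest it can give). Such a share rises with depth. Thinned to 5000 UMIs per cell the means were 14.3% ± 5.65 and 24.7% ± 3.00, and thinned to 2000 UMIs, with 27 club cells and 106 others left out, 6.64% ± 2.05 and 11.1% ± 1.80, still lower in each library at the same p. Among cells with at least 5000 UMIs, unthinned, the shares were 37.0, 31.25 and 50% of club cells and 56.6, 63.5 and 59.2% of *Scgb1a1*-low cells. As a share of all UMIs, the rule's genes included, *Lrig1* was at 0.248 to 0.610 per 10,000 in club cells and 0.655 to 0.704 in *Scgb1a1*-low cells. Without the rule's genes and after TMM scaling, the summed *Lrig1* level gave no call, as stated above. The reading thus depends on the scaling, and no difference in *Lrig1* level is read from the shares. In macrophage-gated barcodes the unthinned share was 5.15 to 18.6%. The 57 positive club cells held 101 *Lrig1* UMIs, and 40 of them had exactly 1.

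**Figure D5:**
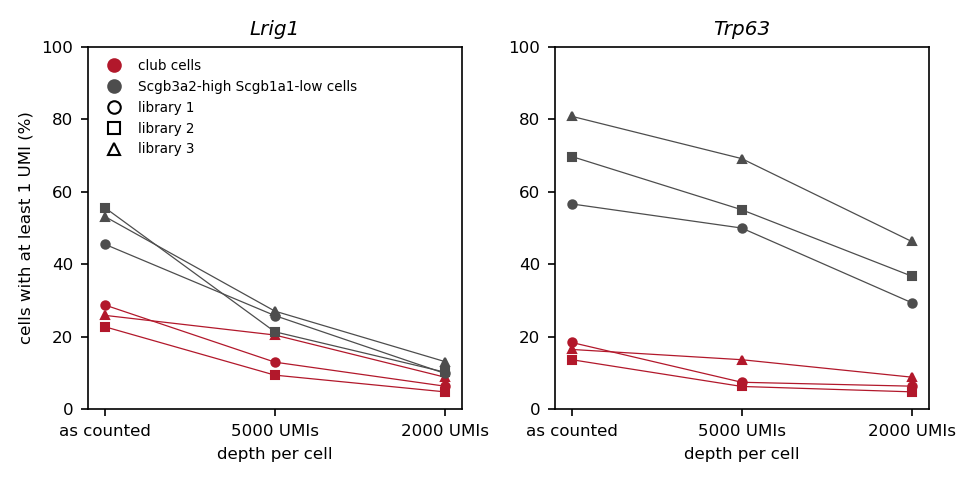
Share of cells with at least 1 UMI of Lrig1 (left) and Trp63 (right) in each library, as counted and with each cell thinned to 5000 or 2000 UMIs, for club cells (red) and Scgb1a1-low cells (grey). All shares shrink with thinning: the Lrig1 means go from 25.8% and 51.4% to 6.64% and 11.1%, and the Trp63 means from 16.2% and 69.1% to 6.64% and 37.5%, with club cells lower in each library.

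*Lrig1*+ club cells, those with a *Lrig1* UMI, were deeper than *Lrig1*- club cells in every library: 15684, 20748 and 16690 against 5472, 7663 and 3958 median UMIs. Leaving out *Lrig1* itself, 495 of 5127 genes passed between them (9.65%), 268 higher (5.23%) and 227 lower (4.43%) in *Lrig1*+ cells; without TMM scaling the median of all genes moved from -0.0018 to 0.22, and 516 were higher and 64 lower. Genes called higher had a median span of 212 kb and those called lower 8.13 kb, against 36.5 kb for all genes tested. *Naaladl2*, a long gene, was at 694, 692 and 804 CPM in *Lrig1*+ and 201, 180.0 and 343 in *Lrig1*- club cells (log2 fold change 1.63 ± 0.20, adjusted p = 0.00371), and the transcription factor gene *Foxp2* at 677, 696 and 679 against 321, 209 and 261 (log2 fold change 1.37 ± 0.19, adjusted p = 0.00371). *Maml2* was at 399.6, 372 and 335 against 158, 135 and 139 (log2 fold change 1.35 ± 0.19, adjusted p = 0.00371; 1.36, adjusted p = 0.0509, without library 1) and the membrane mucin gene *Muc16* at 1883, 1702 and 1809 against 949, 577 and 898 (log2 fold change 1.18 ± 0.18, adjusted p = 0.00408; 1.28, adjusted p = 0.0607, without library 1). Sums of the groups did not overlap for these 4. *Sfn*, a 14-3-3 protein of stratified epithelium, went down, 43.1, 29.02 and 45.7 against 132, 180.0 and 147 CPM (log2 fold change -1.87 ± 0.28, adjusted p = 0.00371), as did *Bpifa1*, 133507, 110883 and 159556 against 246705, 275793 and 180904 (log2 fold change -0.79 ± 0.23, adjusted p = 0.0465; -0.75 and -0.53, neither past the threshold, without library 1 or 2). *Bpifa1* also did not pass without the block (adjusted p = 0.0825), at no more than 5% mitochondrial UMIs (0.084) or among cells of at least 5000 UMIs (-0.86, adjusted p = 0.181). Against *Lrig1*- cells of matched UMI count, 15 of 2628 genes passed, 12 of them among the 495. They included *Naaladl2* (1.42) and *Foxp2* (1.17), higher, and *Bpifa1* (-1.12), lower, but not *Maml2* (1.00, adjusted p = 0.0546), *Muc16* (0.42, adjusted p = 0.239) or *Erbb4* (0.86, adjusted p = 0.16). *Sfn* was too low to be tested there, and it did not pass at no more than 5% mitochondrial UMIs (-1.13, adjusted p = 0.12). With cells of at least 5000 UMIs 39 genes passed, without the block 13, and without library 1 21. The part of depth and gene span in this comparison was not tested beyond these values. By list, before matching, 2 of 20 tested club secretory genes rose and 2 fell, 2 of 13 Notch genes, 4 of 28 transcription factors and the ErbB receptor gene *Erbb4* (0.98 ± 0.24; 0.91 and 0.77, neither past the threshold, without library 1 or 3) rose, and 3 of 47 secretory pathway genes, 3 of 19 dissociation genes and 1 of 12 basal genes fell. Of the members counted here only *Bpifa1* and *Foxp2* passed against cells of matched UMI count. At matched count the club secretory genes *Reg3g* (-1.14, adjusted p = 0.0113) and *Pglyrp1* (-0.78, adjusted p = 0.0456) were also called lower. Neither had been called before matching.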

How the data were processed

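The authors deposited raw UMI counts per gene and barcode from Cell Ranger 8.0.1 (10x 3' libraries, GRCm39). The study removed doublets with DoubletFinder; the sources do not say whether the deposited matrices were made before that step, and they hold barcodes outside its cell limits. Cells were gated by the stated limits; doublets were only scored (simulated pairs) and removed as an alternative. The members and the gene lists were chosen with earlier results of these data known. Counts were added up over the cells of each group in a library, leaving out the 10 genes of the rule (and Lrig1 where it made the groups), and tested in edgeR 4.0.16 (R 4.3.3) with TMM, filterByExpr, quasi-likelihood tests and the library as a block; adjusted p is Benjamini-Hochberg over all genes tested. The block follows the shared pool of both groups, and deviations of same-library sums correlated at 0.108 to 0.254 for club against Scgb1a1-low cells. The libraries held 147898790 to 413632222 UMIs. With 3 pools and the library as a block, edgeR p-values rest on how alike the group differences are across pools and on counting error.

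On counts simulated for the club against Scgb1a1-low comparison (11434 genes, 200 changed), 100% of 4-fold and 73% of 2-fold changes were recovered and 3.35% of calls were false. The changed genes were drawn from the better-counted ones, and the simulated spread was set rather than taken from the data. These rates therefore do not cover calls on few UMIs. The genes named were taken from the label's markers, genes the study names for secretory, basal or sorted cells, the 12 largest rises and 12 largest falls among called genes at 10 CPM or more that moved one way in all 3 libraries (no Gm or Rik models), and, of each list, up to 4 members with the highest mean CPM and 4 called members with the largest change. Coordinates are those of the GRCm39 annotation. DESeq2 1.42.0, other size factors, other gates, UMI-matched cells and leaving out each library were the alternatives.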

Additional observations from a re-analysis of the deposited data

Results flagged for a closer look

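Scgb1a1-rich barcodes outside the quality limits were not used above. Among barcodes with at least 200 UMIs, 160 failed a limit and still passed the Scgb1a1 and gland limits: 79 held over 8% mitochondrial UMIs, 36 under 500 genes and 49 over 40000 UMIs, and a barcode can fail more than 1 limit. They held 244668 Scgb1a1 UMIs, 18.9 to 64.8% of a library's total. With no upper limit on UMIs or genes the club cells numbered 105, 54 and 87 in libraries 1, 2 and 3, and 1425 genes passed against Scgb1a1-low cells. A further 38 barcodes with UMIs of all of Krt5, Ltf, Scgb3a1 and Dcn passed the Scgb1a1 and gland limits, 18, 1 and 19 in the 3 libraries, and were removed as mixed. With mixed barcodes kept, 17 of 20 tested basal genes fell and the basal median was -1.24 in place of -1.78.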

How the results depend on the processing

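Of 2012 alternative values of the 108 named fold changes, 1846 kept their direction and side of the threshold, 124 lost it, 20 gained it and 22 changed sign. The sign changes were all in 9 genes that missed the threshold: without TMM scaling Hspa5 (-0.15), Pdia3 (-0.15), Lgals7 (-0.077) and Klf5 (-0.31), matched on UMI count Hspa5 (-0.052), with Krt5-low comparison cells Krt13 (0.74) and Krt6a (1.49), without the block Krt6a (0.12), at Scgb1a1 of at least 100 Krt6a (0.0033), among club cells with Scgb3a2 Krt6a (0.046), Foxj1 (-0.024) and Acta2 (-1.71), at no more than 5% mitochondrial UMIs Lgals7 (-0.37), and for Klf5 with no filter (-0.084) or mixed barcodes kept (-0.014). Without 1 library their ranges were -2.20 to 0.68 for Krt6a, -0.35 to 0.77 for Lgals7, -0.38 to 0.033 for Aqp5, -0.10 to 0.10 for Klf5, -0.51 to 1.23 for Foxj1 and -1.52 to 6.85 for Acta2. Matching on UMI count, no TMM scaling, keeping mixed barcodes, lifting the upper limits, Krt5-low comparison cells and the Lrig1 share among cells of at least 5000 UMIs were chosen after seeing the data. For club against Scgb1a1-low cells, 1612 genes passed, 2772 without TMM scaling, 1028 with comparison cells matched on UMI count, 981 with comparison cells of Krt5 under 10 per 10,000, 1354 without the replicate block and 1189 to 1219 without 1 library. For club cells with against without Scgb3a2, 18 passed, with 4 without the block, 7 with DESeq2, 81 with no filter on low counts, 8 at Scgb1a1 of at least 100, 0 at no more than 5% mitochondrial UMIs (edgeR, 176 at an unadjusted p under 0.05; DESeq2 was not run there), 6 among cells of at least 5000 UMIs, and 12 to 64 without 1 library. For Lrig1+ against Lrig1- club cells, 495 passed, with 13 without the block, 139 with DESeq2, 15 matched on UMI count, 98 at no more than 5% mitochondrial UMIs, 39 at 5000 UMIs or more, and 21 to 338 without 1 library. Unscaled, the split was 9 higher and 10 lower with Scgb3a2 (15 and 3 with TMM). The Lrig1 share of club cells, 25.8%, became 22.7% at no more than 5% mitochondrial UMIs, 32.3% with no upper limits, 39.4% among cells of at least 5000 UMIs, 14.3% thinned to 5000 and 6.64% thinned to 2000 UMIs, and the mean of the libraries' median UMIs per club cell rose from 7725 to 10977 with no upper limits. The cause of these changes was not tested.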
